A study of Rattus norvegicus with 132 samples.

Results

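RM kidneys were set against Sham kidneys in the renal cortex, over 18 of the 132 regions of interest (ROIs) of a spatial transcriptomics study of rat kidney: 9 ROIs of RM cortex and 9 of Sham cortex, chosen by the injury group and the area code in their titles. Probes of the GeoMx mouse whole-transcriptome panel were hybridised to formalin-fixed, paraffin-embedded rat kidney sections, barcodes were released from ROIs picked by hand in cortex, corticomedullary junction, glomeruli and medulla, and the barcodes were sequenced. The 4 groups were RM, HS, their combination RM-HS, and Sham, with 3 rats each. RM is often short for rhabdomyolysis, in which skeletal muscle breaks down, and HS for hemorrhagic shock, but the labels leave both unexplained. They give no strain, dose or time after injury, and do not say what the Sham rats underwent. They also do not tie ROIs to rats. Some ROIs of a group share a rat, so that no p-value over ROIs below measures the spread between rats, and such p-values can be too small. Each ROI holds many cells of several types, so that fewer cells of a type and less RNA per cell cannot be told apart.

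The renal cortex consists mostly of proximal tubules, which take up filtered phosphate, bicarbonate, glucose and proteins and depend on mitochondrial respiration. Stressed tubule cells are known to draw on several transcriptional programs: the heat shock response, in which the factor Hsf1 induces chaperones when proteins misfold; the integrated stress response, in which reduced translation initiation raises the factor Atf4 and its targets; the antioxidant response driven by Nrf2; and metallothionein induction by the zinc-sensing factor Mtf1. Immediate early genes such as Jun and Atf3 respond within a short time to many of these stresses.

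The RM cortex ROIs lay on 1 plate, plate C, in 3 runs of neighbouring wells (RM 1, RM 2 and RM 3, with 3 ROIs each). Of the Sham cortex ROIs, runs Sham 1 and Sham 2 were on plate C and run Sham 3 was on plate E. Depth was estimated from the values themselves, which are whole multiples of 1 step per ROI, by counting a step as 1 read; no source used here states what a step is. RM ROIs were the deeper ones by this estimate, with a lowest, median and highest total of 710431, 1097158 and 2041294, against 191538, 526350 and 873695 in Sham ROIs (exact permutation test over ROIs, two-sided p = 0.000329; p = 0.0016 against the 6 Sham ROIs of plate C). The negative probe, which targets no gene and measures background, stood at 21.7, 26.7 and 28.5 in RM ROIs and at 19.8, 27.6 and 30.6 in Sham ROIs (exact permutation p = 0.726); in the 6 Sham ROIs of plate C it ran from 26.0 to 30.6, with a difference, RM minus Sham mean, of -2.38 (exact permutation p = 0.0687). The part of depth in the gene results was not tested. The area label held: Slc34a1, the sodium-phosphate cotransporter of the proximal tubule, averaged 401 in cortex and 50.9 in medulla of RM kidneys, and 289 in cortex and 54.3 in medulla of Sham kidneys.

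By fold change of Q3-normalized values, the largest differences between RM and Sham cortex were the rises of Zfand2a, Spp1 and Gdf15. With the negative probe subtracted and values under 1 set to 1, Hspa1a (5.81) and Jun (4.76) stood above Zfand2a (4.38), Spp1 (4.04) and Gdf15 (3.74) on the log2 scale. Sham values of Hspa1a lay near the negative probe, so its size there depends on that floor. Without subtraction it was 2.69. In limma 465 of 8827 genes were higher in RM (5.27%) and 20 were lower (0.227%), together 485 genes or 5.49%, at a Benjamini-Hochberg adjusted p under 0.05. With ROIs that share rats, these p-values can be too small. Of the rises, 125 exceeded a log2 fold change of 1 and 16 exceeded 2. Against the 6 Sham ROIs of plate C, 852 genes were higher (9.65%) and 100 were lower (1.13%), together 10.8%, and 484 of the 485 genes passed there with the same direction. The exception was Cpsf7, named after its value was seen. Sham was the only group on both plates, so the plate term of the main fit rests on Sham ROIs alone. Fold changes of that fit are adjusted by this term and are not plain differences between the means of all RM and all Sham cortex ROIs. With no plate term Ftl1 stood at 1.81, against 2.17 in the main fit, and Rgs19 at -0.94, against -1.49. The main fit and that of plate C share the RM ROIs and the Sham ROIs of plate C, so their agreement is not an independent check of plate. The direction of the calls depended on the processing: 95.9% of the 485 were higher in RM, while 771 genes were higher and 361 lower after quantile normalization (68.1% higher). With only the RM and Sham cortex ROIs fitted, 1265 were higher and 788 lower (61.6% higher). In that fit the plate term absorbs run Sham 3, so its fold changes are those of plate C, with another estimate of the spread. In 182 genes every RM ROI exceeded every Sham ROI (2.06% of genes), and 150 of these were among the 465 rises. Every RM ROI lay below every Sham ROI in 2 genes (0.0227%), of which 1 was among the falls. In 81 genes, all of them rises, the call stood in each of the 22 fits of different settings in which the gene was tested.

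The rises lay mostly among strongly detected genes. Of the 883 genes in decile 10 of mean signal over the 18 ROIs, 327 were higher and 9 lower in RM, or 38.1%, and their median log2 fold change was 0.37; it was 0.45 on plate C and 0.04 after quantile normalization. The median over all genes tested was -0.07. Counts of abundant gene families given below are therefore read beside decile 10 as well as beside the 5.27% of all genes. Sham runs also differed from each other in the genes that rose: Sham 1 was the lowest Sham run in 385 of the 465 rises (2784 of all 8827 genes) and Sham 3 the highest in 383 (2979 of all genes). The mean of Sham 3 reached or exceeded the lowest RM run in 104 of the 465. In 360 of them all 3 RM run means exceeded all 3 Sham run means, which 12.5% of all genes did; 13.1% had all 3 RM run means below. RM 3 was the lowest RM run in 363 of the 465 rises (2554 of all genes). Without run Sham 1, 135 of the 465 rises and 2 of the 20 falls passed in the fit that keeps Sham 3 and a plate term. On plate C alone, with run Sham 2 as the only Sham run (a setting added after seeing the data), 376 of the 465 and 9 of the 20 passed. Below, "without Sham 1" is the first of these fits and "against Sham 2 alone" the second.

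On Q3-normalized values the largest rise was that of Zfand2a. It encodes a zinc finger protein induced by arsenite and proteotoxic stress and bound to the proteasome. Its Q3-normalized signal had a lowest, median and highest value of 252, 715 and 1316 in RM ROIs, against 38.5, 49.8 and 63.0 in Sham ROIs. No RM ROI overlapped a Sham ROI. The log2 fold change was 3.52 ± 0.22 (SE, 9 against 9 ROIs with the plate term, limma adjusted p = 1.22e-29). It was 3.59 ± 0.21 on plate C and 3.67 with no plate term. Spp1, which encodes the secreted phosphoprotein osteopontin, stood at 154, 449 and 1301 in RM ROIs, against 41.5, 51.0 and 119 in Sham ROIs. Its groups did not overlap either (3.16 ± 0.36, adjusted p = 2.37e-12). Gdf15, a stress-induced cytokine of the TGF-beta superfamily, stood at 351, 556 and 626 in RM ROIs, against 51.0, 58.2 and 80.3 in Sham ROIs. Its groups stayed far apart (3.01 ± 0.24, adjusted p = 3.77e-21).

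The RM runs were not alike in the size of these rises. Zfand2a averaged 674, 1093 and 386 in runs RM 1, RM 2 and RM 3, against 54.2, 52.4 and 45.0 in Sham 1, Sham 2 and Sham 3. Spp1 averaged 508, 1137 and 201 in the RM runs, against 47.6, 73.7 and 69.7 in the Sham runs. Gdf15 averaged 472, 515 and 527 in the RM runs, against 55.5, 58.1 and 68.9 in the Sham runs. RM 2 was thus the highest and RM 3 the lowest for the first 2 genes, while the 3 runs were close for Gdf15. With 1 well run left out at a time, Spp1 ranged from 2.54 to 3.79 and Zfand2a from 3.15 to 3.91, all past the threshold.

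**Figure D1:**
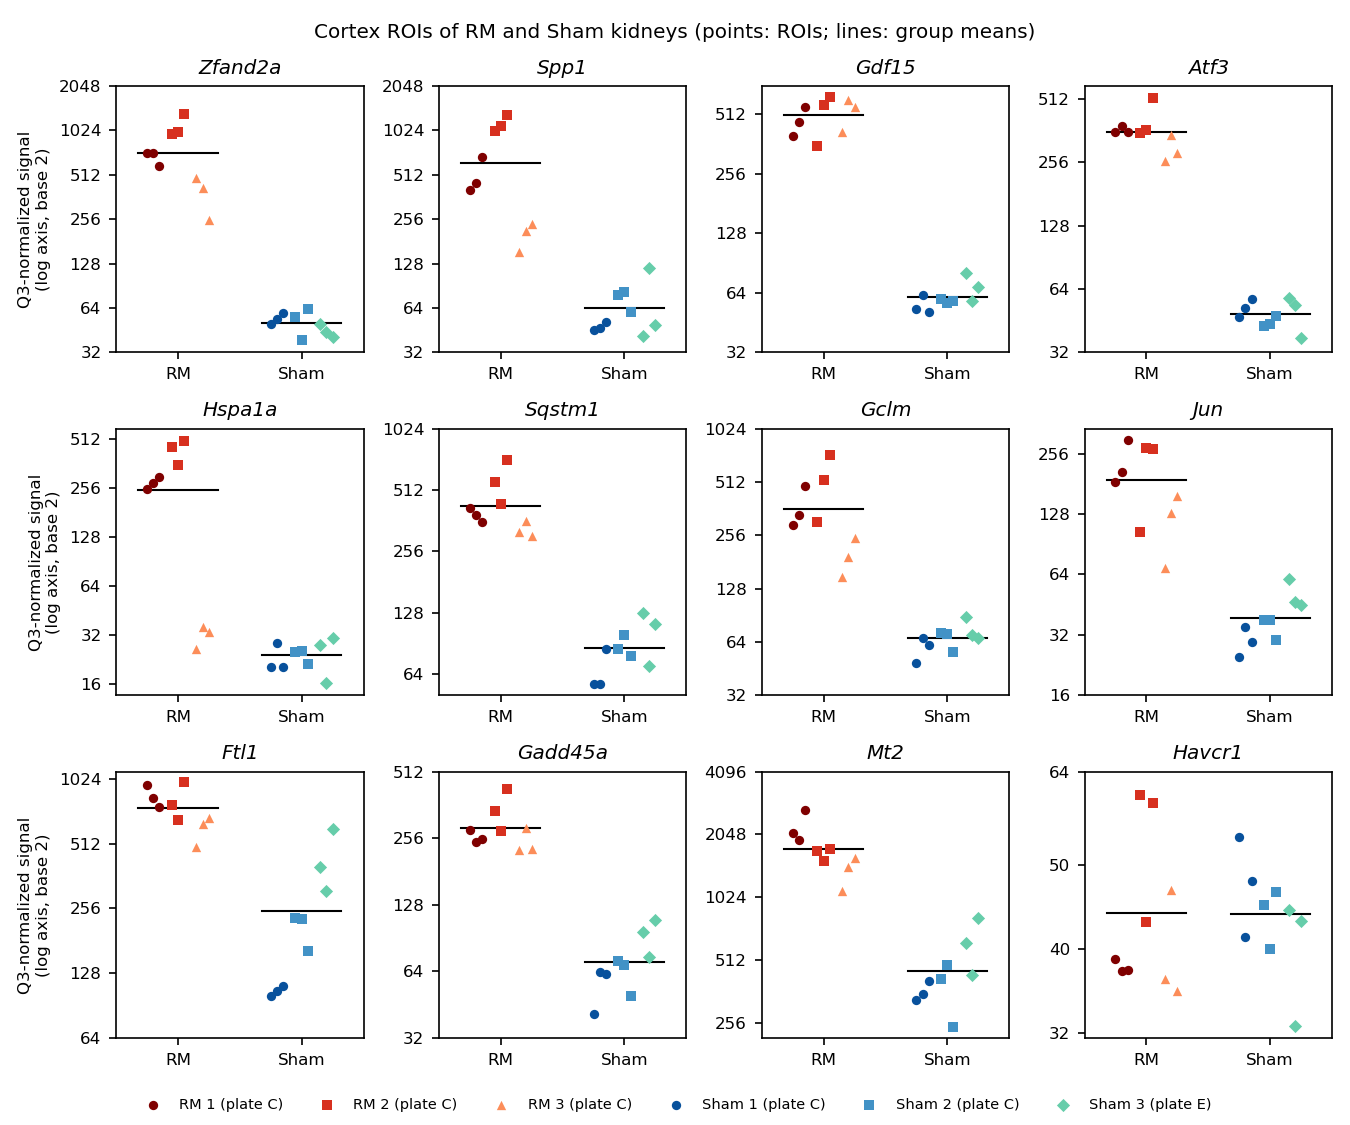
Q3-normalized signal (log axis, base 2) of 12 genes in cortex ROIs of RM kidneys (left) and Sham kidneys (right); points are ROIs, shaped and coloured by well run, and lines are group means. In Zfand2a, Spp1 and Gdf15 all 9 RM ROIs lay above all 9 Sham ROIs, Hspa1a was low in run RM 3, and Havcr1 overlapped.

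Havcr1 and Slc34a1, both known from the proximal tubule, missed the threshold. Havcr1, which encodes the injury marker kidney injury molecule 1, stood at 35.8, 39.0 and 60.2 in RM ROIs, against 32.6, 44.3 and 53.9 in Sham ROIs. The groups overlapped, with a log2 fold change of -0.02 ± 0.22 (adjusted p = 0.971). Both medians of Havcr1 lay below 2 times the median of the negative probe, which was 26.7 in RM and 27.6 in Sham ROIs. The gene was thus weakly detected in cortex. Slc34a1 stood at 219, 406 and 527 in RM ROIs, against 142, 214 and 681 in Sham ROIs. Its log2 fold change against all Sham ROIs was 0.76 ± 0.26 with the plate term (limma adjusted p = 0.0631) and 0.61 with no plate term. Slc34a1 was higher in RM against the Sham ROIs of plate C alone (1.06 ± 0.19, limma adjusted p = 4.87e-06). Its run means were 496, 351 and 356 in RM 1, RM 2 and RM 3, against 152, 226 and 488 in Sham 1, Sham 2 and Sham 3, so that the Sham run of plate E lay within the RM runs and those of plate C below them.

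Heat shock and protein folding genes rose in 8 of the 16 measured and fell in none, with a median log2 fold change of 0.64 over the list against -0.07 over all genes. The count was 9 on plate C, 5 without run Sham 1, 9 against Sham 2 alone and 10 after quantile normalization. Of the 16, 6 were in decile 10 of signal. Hspa1a, the stress-inducible Hsp70 chaperone, stood at 26.3, 273 and 495 in RM ROIs, against 16.3, 25.2 and 30.9 in Sham ROIs. All but 1 RM ROI lay above every Sham ROI (2.69 ± 0.37, adjusted p = 4.56e-09). The Sham values lay near the negative probe, which ran from 19.8 to 30.6 in Sham ROIs. The RM run means of Hspa1a were 274, 435 and 31.8, against 23.2, 24.1 and 25.0 in the Sham runs. Run RM 3 was close to Sham. The log2 fold change was 1.96 without RM 2 and 3.82 without RM 3, past the threshold in both. Dnaja1, a cochaperone of Hsp70, stood at 202, 423 and 916 in RM ROIs, against 93.1, 109.5 and 149 in Sham ROIs, without overlap (1.91 ± 0.20, adjusted p = 1.11e-14). Hspe1, the mitochondrial cochaperone Hsp10, stood at 86.1, 151 and 307 in RM ROIs, against 47.6, 79.1 and 128 in Sham ROIs and overlapped in part (1.31 ± 0.23, adjusted p = 6.70e-06). Hsp90ab1, Dnajb1, Bag3 and Hspd1 rose by 0.57 (Hspd1) to 1.29 (Hsp90ab1), and Zfand2a is also a member; here and below, list members beyond the naming rule were added after their values were seen. In each of the 8 genes that rose, RM 2 was the highest and RM 3 the lowest RM run. This order was not particular to the list. Of all 465 rises, RM 2 was the highest RM run in 265 (2265 of all genes) and RM 3 the lowest in 363. All 6 rises of the proteasome and ubiquitin list below had the same order.

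Rat promoter sequence is shown for genes of this group because they rose together; the motifs and the stretches printed were chosen after their matches and the genes' values were seen. RefSeq windows (GRCr8) of 250 bases before to 50 bases after the start were held for 15 of the 16 heat shock genes. A heat shock element was taken as 3 units that alternate between GAA and TTC with any 2 bases between units, on either strand, so that elements overlap where more units follow. It was present in 5 of these 15 genes (Chordc1, Dnaja1, Hspd1, Hspe1 and Hsph1), of which Dnaja1, Hspd1 and Hspe1 rose, and in 0.798% of all 33469 windows. Of the genes tested that had a window it was present in 36 of 6592 (0.546%), and of the rises in 8 of 387 (2.07%). Hspe1 and Hspd1, the Hsp60 chaperone (0.57 ± 0.19, adjusted p = 0.0474), lie head to head, and their windows hold the same pair of overlapping elements, shown here in capitals in the 120 bases before the start of Hspe1 (chr9:64084207-64084326, plus strand). Zfand2a had the largest rise on Q3-normalized values. The 250 bases before its start (chr12:20275200-20275449, plus strand) held no match to these letters and 1 AP-1 site (TGANTCA, in capitals). That site overlaps a match to the antioxidant letters TGACNNNGC.
Hspe1: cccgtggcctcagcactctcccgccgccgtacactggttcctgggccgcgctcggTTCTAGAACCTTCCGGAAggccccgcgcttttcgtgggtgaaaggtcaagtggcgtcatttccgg
Zfand2a: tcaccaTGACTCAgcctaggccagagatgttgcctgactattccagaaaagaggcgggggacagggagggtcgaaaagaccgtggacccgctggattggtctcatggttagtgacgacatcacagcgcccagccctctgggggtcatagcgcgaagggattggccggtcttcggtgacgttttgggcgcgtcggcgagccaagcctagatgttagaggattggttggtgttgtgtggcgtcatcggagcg
The AP-1 letters were present in 7.33% of all windows, 5.29% of those of the genes tested and 5.68% of those of the rises, and the antioxidant letters in 12.1%, 15.2% and 25.1% in the same order. Beside these, TGACGTCA, of the cAMP response, was present in 1.83%, 3.23% and 5.43%, and TGATGCAA, of the amino acid response, in 0.795%, 0.501% and 0.258%. A match is a run of letters and not a shown binding site.

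Proteasome and ubiquitin genes rose in 6 of 21. Sqstm1, the autophagy receptor p62 that binds ubiquitinated cargo, stood at 305, 385 and 718 in RM ROIs, against 57.1, 84.5 and 127 in Sham ROIs (2.36 ± 0.20, adjusted p = 1.12e-19), with no overlap. Ubb, a polyubiquitin gene, was the most abundant of the leading rises, at 2757, 4048 and 7487 in RM ROIs, against 538, 972 and 1817 in Sham ROIs; its groups did not overlap (2.20 ± 0.22, adjusted p = 2.11e-15). Vcp, an ATPase that extracts ubiquitinated proteins (0.94 ± 0.19), and the proteasome subunits Psmb1 (0.74 ± 0.22), Psmd8 (0.62 ± 0.20) and Psmd11 (0.55 ± 0.15) rose less. The count was 9 on plate C and 3 without Sham 1. Of 12 chaperones of the endoplasmic reticulum, Canx (1.01 ± 0.19, adjusted p = 2.85e-05) and Hspa5, which encodes BiP (0.96 ± 0.26, adjusted p = 0.0107), rose; neither passed without Sham 1.

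The integrated stress response list rose in 6 of 15, and the count was also 6 on plate C and without Sham 1. Atf3, a transcription factor induced downstream of Atf4, stood at 259, 356 and 517 in RM ROIs, against 37.3, 47.5 and 58.2 in Sham ROIs. Every RM ROI exceeded every Sham ROI (2.82 ± 0.24, adjusted p = 1.45e-19), and the RM run means were 364, 411 and 296. Run RM 3 was thus well above Sham in Atf3, unlike in Hspa1a. Atf4 itself stood at 129.7, 159.8 and 209.9 in RM ROIs, against 41.2, 54.7 and 73.5 in Sham ROIs (1.58 ± 0.16, adjusted p = 5.87e-15), again without overlap. Ppp1r15a, whose product Gadd34 restores translation, rose by 1.35 ± 0.17 (adjusted p = 1.36e-10). The cystine transporter subunits Slc3a2 (1.16 ± 0.20) and Slc7a11 (1.10 ± 0.21) and Gdf15 completed the 6.

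The Nrf2 and oxidative stress list rose in 9 of 14, with a median of 1.12; the median was 0.55 after quantile normalization, and 5 rose without Sham 1 and 8 against Sham 2 alone. Of the 14 genes, 8 were in decile 10 of signal. Gclm, the modifier subunit of the enzyme that limits glutathione synthesis, stood at 149, 305 and 733 in RM ROIs, against 48.7, 67.7 and 88.6 in Sham ROIs, with no overlap (2.34 ± 0.28, adjusted p = 1.79e-11). Sqstm1 is also a member. Catalase (Cat, 1.32 ± 0.27, adjusted p = 0.000147) and the glutathione peroxidase gene Gpx3 (1.26 ± 0.37, adjusted p = 0.0186) followed. The run means of Gpx3 were 3336, 2334 and 1947 in RM 1, RM 2 and RM 3 and 415, 1625 and 2413 in Sham 1, Sham 2 and Sham 3. Sham 3 thus lay within the RM runs, and without Sham 1 the log2 fold change was 0.29 (adjusted p = 0.995). Sod1, Sod2, Txn1, Slc7a11 and Nfe2l2, which encodes Nrf2, made up the 9. Ephx1, the microsomal epoxide hydrolase, was among the largest rises outside the list, at 286, 387 and 894 in RM ROIs, against 74.9, 91.4 and 148 in Sham ROIs (2.16 ± 0.24, adjusted p = 2.95e-13).

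Ferritin genes made up the rises among 13 genes of heme and iron handling. Ftl1, the light chain, stood at 495, 755 and 984 in RM ROIs, against 100.1, 227 and 601 in Sham ROIs, and 8 of 9 RM ROIs exceeded every Sham ROI (2.17 ± 0.23, adjusted p = 1.53e-13). Fth1, the heavy chain, stood at 1322, 1612 and 3688 in RM ROIs, against 246, 608 and 1083 in Sham ROIs, without overlap (2.14 ± 0.25, adjusted p = 3.32e-12). The other 11 genes of the list missed the threshold, and the list median was 0.08.

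Both metallothionein genes rose among 6 metallothionein and zinc transport genes. Mt2 stood at 1098, 1702 and 2683 in RM ROIs, against 243, 414 and 816 in Sham ROIs (2.12 ± 0.23, adjusted p = 1.66e-13) and Mt1 at 445, 622 and 765 in RM ROIs, against 165, 221 and 348 in Sham ROIs (1.48 ± 0.18, adjusted p = 6.82e-11). The groups did not overlap in either gene, and both passed without Sham 1. The core of the metal response element, TGCGCNC or TGCACNC on either strand, occurred 6 times in the 200 bases before the start of Mt1 (GRCr8, chr19:10832976-10833175, minus strand), printed 5′ to 3′ with the matches in capitals. It is a short and common run of letters, present in 24.2% of all windows and in 41.3% of those of the rises, against 37.7% of those of all genes tested.
Mt1: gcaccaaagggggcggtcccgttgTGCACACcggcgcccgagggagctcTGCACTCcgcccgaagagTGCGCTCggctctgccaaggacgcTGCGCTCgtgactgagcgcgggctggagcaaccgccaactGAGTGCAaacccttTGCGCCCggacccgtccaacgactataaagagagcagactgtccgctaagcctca

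Immediate early genes rose in 11 of 21, and 10 of the 21 were in decile 10 of signal. In 9 of the 21 every RM ROI exceeded every Sham ROI, as in 2.06% of all genes. Jun stood at 68.8, 185 and 301 in RM ROIs, against 24.8, 37.8 and 60.9 in Sham ROIs (2.28 ± 0.21, adjusted p = 2.38e-17) and its AP-1 relative Jund at 459, 714 and 913 in RM ROIs, against 109, 159 and 214 in Sham ROIs (2.10 ± 0.17, adjusted p = 5.41e-20), neither with overlap. Klf6, a zinc finger transcription factor, stood at 206, 292 and 684 in RM ROIs, against 54.6, 73.0 and 90.6 in Sham ROIs (2.07 ± 0.20, adjusted p = 8.18e-16). Atf3, Fosl1, Fosl2, Junb, Egr1, Ier3, Myc and Maff rose as well, by 0.66 (Fosl1) to 2.82 (Atf3). No member fell. The count was 12 on plate C and 9 without Sham 1.

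Genes that dampen such responses rose too, in 6 of 16 of the list of mRNA decay and feedback inhibitors. Zfp36, which binds AU-rich elements and speeds mRNA decay, stood at 139, 223 and 285 in RM ROIs, against 40.7, 56.4 and 80.4 in Sham ROIs (1.88 ± 0.18, adjusted p = 1.36e-15). Its paralog Zfp36l1 rose by 1.61 ± 0.17, and the deadenylase cofactors Btg2 and Btg1 rose by 1.54 ± 0.21 and 1.13 ± 0.18. The groups did not overlap in these 4 genes. Dusp1, a phosphatase of MAP kinases, and Zfp36l2 completed the 6.

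Of 13 genes of the p53 and cell death list 5 rose. Gadd45a, a growth arrest gene, stood at 226, 276 and 429.8 in RM ROIs, against 41.1, 68.7 and 109.9 in Sham ROIs, without overlap (2.13 ± 0.21, adjusted p = 3.94e-15). The antiapoptotic genes Mcl1 (1.09 ± 0.15, adjusted p = 5.19e-09) and Bcl2l1 (0.60 ± 0.19, adjusted p = 0.0408), Phlda1 (0.98 ± 0.24, adjusted p = 0.00202) and Gadd45g (0.84 ± 0.21, adjusted p = 0.00393) also rose. Of these, Gadd45a and Mcl1 passed without Sham 1. Of 9 cytokine response genes, Cebpb (1.04 ± 0.24, adjusted p = 0.00121) and Stat3 (0.998 ± 0.18, adjusted p = 1.94e-05) rose. Of 11 glucocorticoid and circadian genes, Nfil3, a repressor of the clock system, rose (1.23 ± 0.23, adjusted p = 2.07e-05).

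Tubular injury and repair markers rose in 4 of 16. Beside Spp1 and Gdf15 these were the calcium-binding protein gene S100a11, at 66.0, 114 and 165 in RM ROIs, against 30.7, 42.0 and 63.2 in Sham ROIs (1.41 ± 0.25, adjusted p = 5.73e-06), and clusterin (Clu), an extracellular chaperone, at 59.3, 97.1 and 149.6 in RM ROIs, against 37.2, 45.6 and 52.4 in Sham ROIs (1.07 ± 0.20, adjusted p = 2.99e-05). Neither gene overlapped, and the 4 passed without Sham 1. The median log2 fold change of the 16 markers was 0.36. Of 13 extracellular matrix genes, thrombospondin 1 (Thbs1) rose the most, at 145, 255 and 485 in RM ROIs, against 53.9, 71.9 and 80.3 in Sham ROIs (1.96 ± 0.30, adjusted p = 2.26e-07), followed by the metalloproteinase inhibitor Timp3 (1.37 ± 0.30) and the basement membrane collagen Col4a1 (1.17 ± 0.26). Only Thbs1 of these 3 passed without Sham 1.

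Actin cytoskeleton genes rose in 14 of 20, among them ezrin (Ezr, 1.43 ± 0.20, adjusted p = 1.26e-08), which links actin to the brush border membrane, profilin (Pfn1, 1.10 ± 0.21), alpha-actinin 4 (Actn4, 1.10 ± 0.17) and the myosin light chain Myl12a (1.04 ± 0.25). Of the 20 genes, 11 were in decile 10 of signal; 11 rose after quantile normalization, 4 without Sham 1 and 13 against Sham 2 alone. Lysosome genes rose in 10 of 16, led by the cathepsins Ctsl (1.55 ± 0.27, adjusted p = 6.70e-06), Ctsd (1.49 ± 0.25, adjusted p = 1.82e-06) and Ctsa (1.24 ± 0.25) and the proton pump subunit Atp6v0c (1.24 ± 0.20). That count was 11 after quantile normalization, 4 without Sham 1 and 10 against Sham 2 alone, and 8 of the 16 were in decile 10 of signal. In 4 of the 10 the mean of Sham 3 reached or exceeded the lowest RM run.

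Of 16 hypoxia and glycolysis genes 6 rose, among them Ndrg1 (0.96 ± 0.25), Pgam1 (0.91 ± 0.16), Pfkfb3 (0.83 ± 0.24) and Pgk1 (0.70 ± 0.16). Pgam1 alone of the list passed without Sham 1, and 5 genes rose against Sham 2 alone. On plate C 7 rose and 1 fell, and after quantile normalization 5 rose and 3 fell. In lipid metabolism, Plin2, which coats lipid droplets, stood at 78.3, 105 and 199 in RM ROIs, against 39.5, 53.4 and 61.1 in Sham ROIs (1.07 ± 0.26, adjusted p = 0.00211) and Insig1, which restrains sterol synthesis, at 40.6, 51.1 and 59.7 in RM ROIs, against 16.6, 25.6 and 31.6 in Sham ROIs (1.06 ± 0.24, adjusted p = 0.000686). Neither overlapped, and of the 2 Insig1 passed without Sham 1. Of 13 fatty acid oxidation and peroxisome genes Cat (above) rose; it did not pass without Sham 1.

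**Figure D2:**
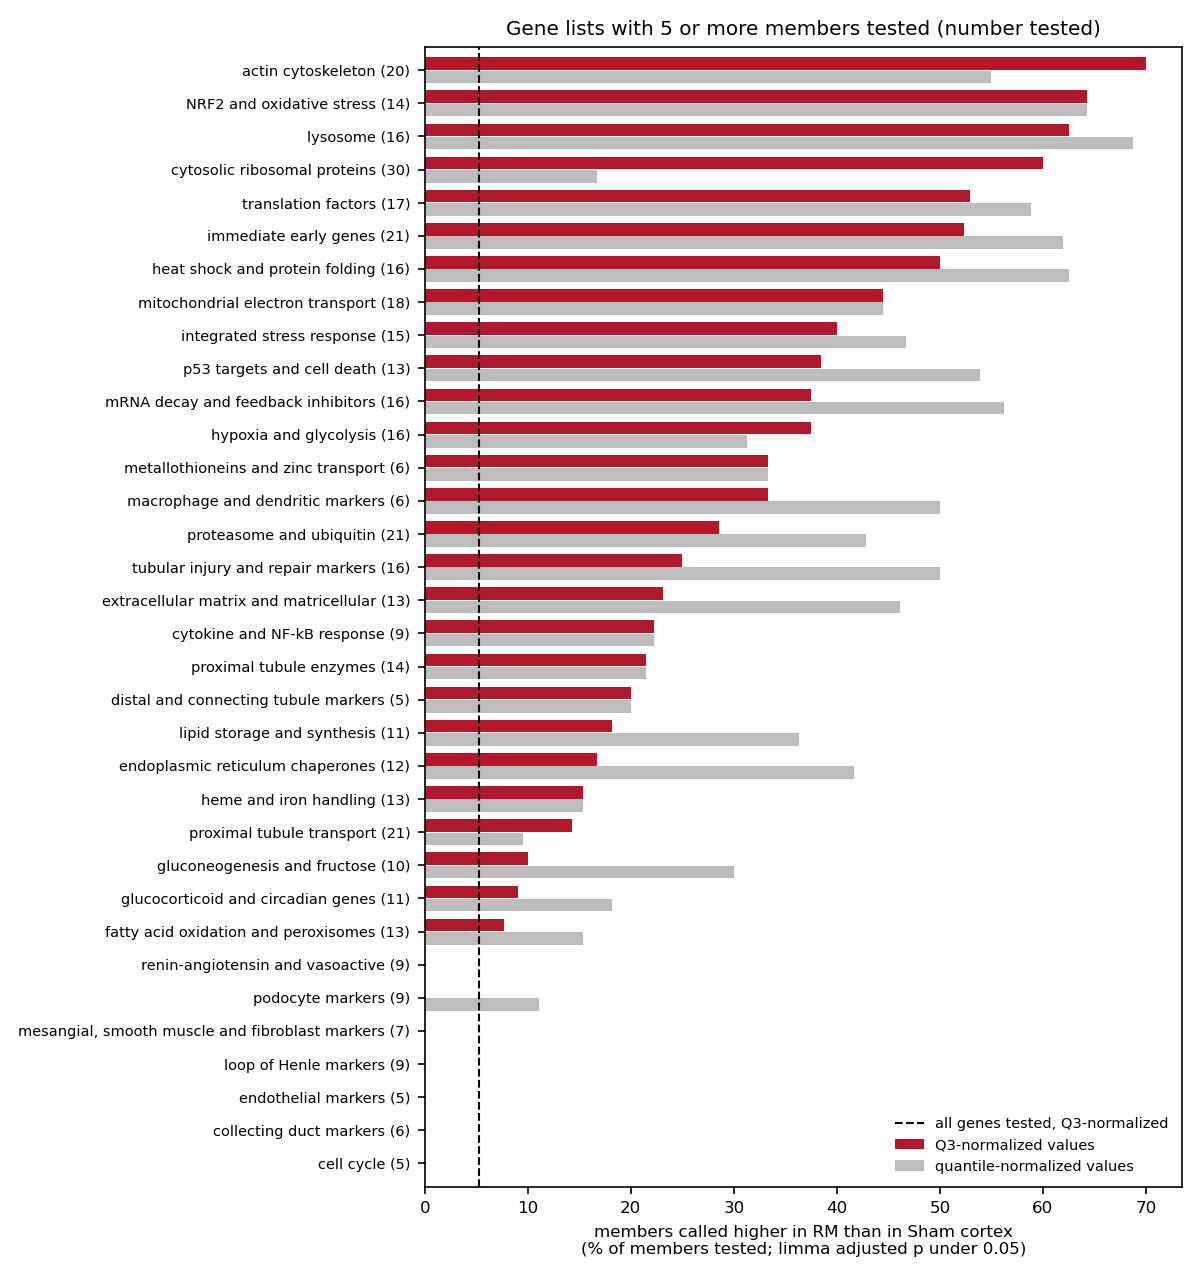
Share of the measured members of each gene list that were higher in RM than in Sham cortex (limma, adjusted p under 0.05), on Q3-normalized (red) and quantile-normalized values (grey); numbers of members tested are in parentheses, lists with 5 or more are drawn, and the dashed line is the 5.27% of all genes. Ribosomal protein genes have 18 of 30 called on Q3-normalized values and 5 of 30 on quantile-normalized ones; NRF2 genes have 9 of 14 on both.

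Families of abundant housekeeping genes depended on the scaling or on the Sham runs. Cytosolic ribosomal protein genes rose in 18 of 30 and fell in 1 (Rpl7, -0.50 ± 0.16, adjusted p = 0.046, named after its value was seen), with a median of 0.61. After quantile normalization 5 rose and 4 fell, with a median of 0.02; 25 of the 30 were in decile 10 of signal. The count of rises was 4 without Sham 1, 3 with 1 mean per well run and 22 against Sham 2 alone. Rplp2 (0.995 ± 0.17), Rps23 (0.98 ± 0.18), Rps24 (0.89 ± 0.15) and Rps19 (0.87 ± 0.19) were the largest. Translation factors rose in 9 of 17, among them Eef2 (1.40 ± 0.21, adjusted p = 1.45e-07), Eif1 (1.11 ± 0.17), Eif5a (1.10 ± 0.16) and Eif4a1 (0.86 ± 0.24), and in 10 after quantile normalization, when 2 fell. The count was 3 without Sham 1, 2 with 1 mean per well run and 9 against Sham 2 alone, and 10 of the 17 were in decile 10 of signal.

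Mitochondrial electron transport genes rose in 8 of 18, and limma called 0 of the 18 without Sham 1 (6 at an unadjusted p under 0.05) and 0 with 1 mean per well run (10 at an unadjusted p under 0.05), while 8 rose against Sham 2 alone. Of the 18, 11 were in decile 10 of signal. Atp5b, the catalytic subunit of ATP synthase, averaged 384, 403 and 279.5 in RM 1, RM 2 and RM 3 and 84.2, 198 and 363 in Sham 1, Sham 2 and Sham 3 (1.40 ± 0.27, adjusted p = 5.14e-05). Sham 3 thus lay among the RM runs, and in 5 of the 8 genes its mean reached or exceeded the lowest RM run. Atp5a1 (1.32 ± 0.25), Cox5a (1.04 ± 0.20) and Atp5c1 (1.04 ± 0.24) were the next largest.

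Proximal tubule transporters showed a like spread of Sham runs. Of 21 measured, Slc13a3, which carries dicarboxylates (1.16 ± 0.24, adjusted p = 0.000237), Slc3a1, of cystine uptake (1.04 ± 0.25, adjusted p = 0.00172), and Slc4a4, the basolateral bicarbonate carrier (0.86 ± 0.24, adjusted p = 0.0146), rose against all Sham ROIs, while 10 rose on plate C and limma called 0 without Sham 1 (3 at an unadjusted p under 0.05) and 7 against Sham 2 alone. Of the 21, 13 were in decile 10 of signal. The summed signal of the 21 was 2296 to 3901 in RM ROIs, against 1682 to 4223 in all Sham ROIs and 1682 to 2224 in those of plate C. Of 14 proximal tubule enzymes Akr1a1 (1.15 ± 0.25), Gatm (1.03 ± 0.29) and Dao (0.83 ± 0.23) rose, 9 on plate C, and limma called 0 without Sham 1 (5 at an unadjusted p under 0.05) and 5 higher and 1 lower against Sham 2 alone. Of these 14, 8 were in decile 10. No gene of the 2 lists fell against all Sham ROIs, and 1 enzyme fell against those of plate C.

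**Figure D3:**
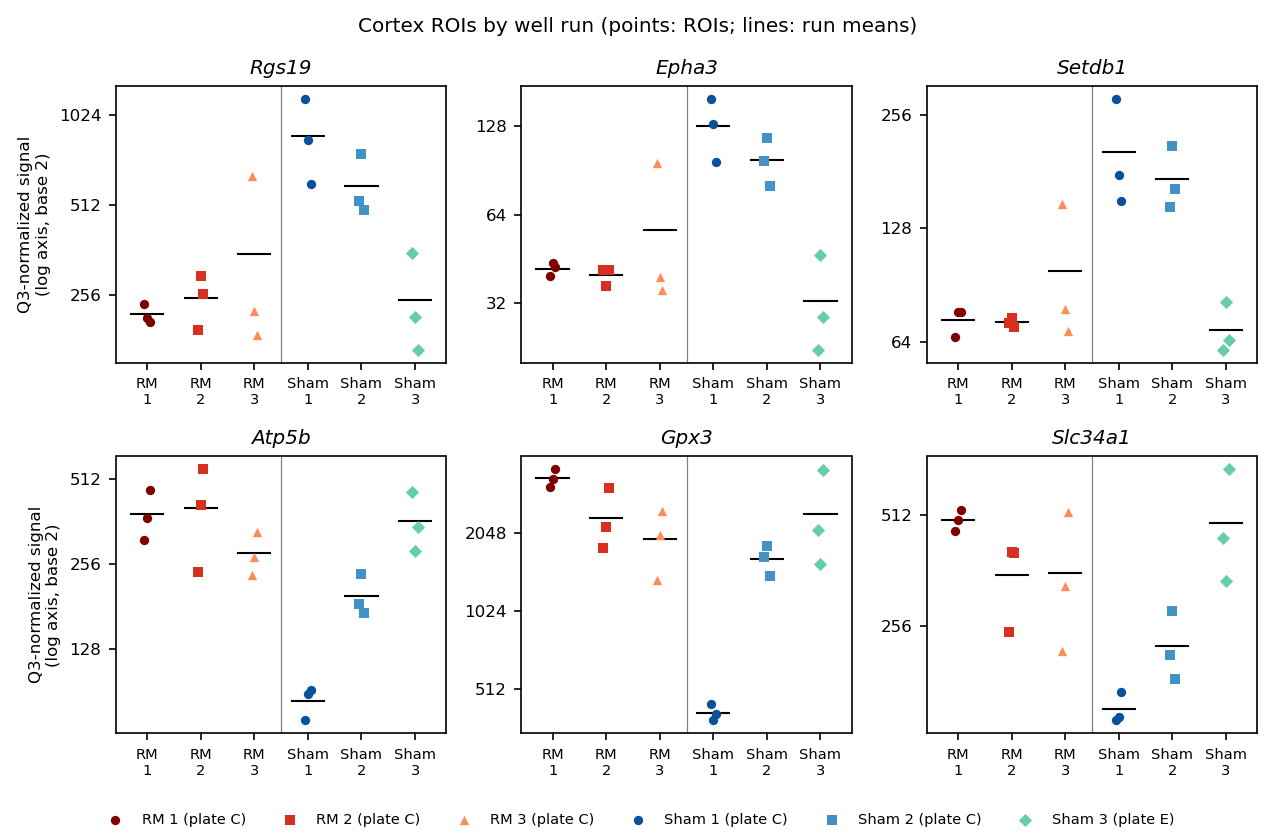
Q3-normalized signal (log axis, base 2) of 6 genes in cortex ROIs by well run, RM runs left of the line and Sham runs right of it; points are ROIs and bars run means. The mean of run Sham 3, of plate E, lay within the RM run means in Rgs19, Atp5b, Gpx3 and Slc34a1 and below them in Epha3 and Setdb1, where runs Sham 1 and Sham 2 lay above.

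Markers of most other cell types missed the threshold. Limma called 0 of the measured markers of the loop of Henle (9), collecting duct (6), podocytes (9), endothelium (5), mesangium, smooth muscle and fibroblasts (7), neutrophils (1), lymphocytes (2), skeletal and cardiac muscle (4), red blood cells (3), fat and liver (3) and urothelium (1), and 0 of 9 renin-angiotensin, 2 interferon and 5 cell cycle genes; 2 of these 66 genes had an unadjusted p under 0.05. After quantile normalization 1 podocyte marker was higher and 2 lower, 2 loop of Henle markers were lower and 1 collecting duct marker was lower. Podocyte markers summed to 304 to 368 in RM ROIs, against 336 to 402 in Sham ROIs, and the podocyte factor Wt1, at 20.4, 24.8 and 33.0 in RM ROIs, against 22.4, 32.6 and 43.4 in Sham ROIs, was near the negative probe. Muscle markers summed to 132 to 165 in RM ROIs, against 108 to 181 in Sham ROIs. The hemoglobin gene Hba-a1 ranged widely in both groups, at 401, 839.6 and 2172 in RM ROIs, against 496, 622 and 1200.2 in Sham ROIs (-0.05 ± 0.40, adjusted p = 0.97). The lowest adjusted p among the markers named here was that of Podxl, of the podocyte surface (-0.45 ± 0.18, adjusted p = 0.167).

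Macrophage and dendritic cell markers rose in 2 of 6, both of the class II antigen presentation pathway. H2-Ab1 stood at 49.6, 64.2 and 81.3 in RM ROIs, against 27.4, 38.5 and 53.1 in Sham ROIs (0.90 ± 0.21, adjusted p = 0.00113) and Cd74, the invariant chain, at 85.5, 117 and 142 in RM ROIs, against 35.9, 61.9 and 116 in Sham ROIs (0.86 ± 0.27, adjusted p = 0.0353). The groups overlapped in both genes, and H2-Ab1 alone passed without Sham 1. The summed signal of the 6 markers was 302 to 406 in RM ROIs, against 192 to 336 in Sham ROIs. Its part in other rises was not tested. Among 5 distal and connecting tubule markers, Klotho (Kl), a coreceptor of the phosphate hormone Fgf23, stood at 185, 298 and 342 in RM ROIs, against 99.2, 153 and 216 in Sham ROIs (1.08 ± 0.23, adjusted p = 0.000297); it did not pass without Sham 1 (0.79, adjusted p = 0.217).

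The falls numbered 20 here, 100 against the Sham ROIs of plate C, 361 after quantile normalization and 788 with RM and Sham cortex ROIs only. Those 788 rest on the fold changes of plate C with another estimate of the spread. The falls numbered 8 with no plate term and 3 with 1 mean per well run. In 10 of the 20 the mean of Sham 3 lay at or below the highest RM run. The largest was that of Rgs19, which speeds GTP hydrolysis by G proteins, at 188, 226 and 639 in RM ROIs, against 167, 529 and 1167 in Sham ROIs (-1.49 ± 0.32, adjusted p = 0.000439). Its run means were 220.2, 249 and 351 in RM 1, RM 2 and RM 3, against 874, 595 and 246 in Sham 1, Sham 2 and Sham 3. Sham 3 thus lay within the RM runs. Sham 3 lay below the RM runs for the ephrin receptor Epha3 (41.9, 39.9 and 56.9 in the RM runs, against 129, 98.2 and 32.5 in the Sham runs) and the histone methyltransferase Setdb1 (73.2, 72.0 and 98.3 in the RM runs, against 203, 173 and 69.0 in the Sham runs). In limma with no plate term, Rgs19 (-0.94, adjusted p = 0.104) and Epha3 (-0.71, adjusted p = 0.066) missed the threshold. Setdb1 passed there (-0.74, adjusted p = 0.0304). Hmga2 (-1.02 ± 0.23, adjusted p = 0.000869), a chromatin protein, and Marcks (-0.95 ± 0.18, adjusted p = 4.30e-05), a substrate of protein kinase C, had all 3 RM run means below all 3 Sham run means, as did 9 of the 20 falls (13.1% of all genes). Zfp609, Csdc2, Ins1, Snorc and Smim22 fell by 1.002, 0.94, 0.88, 0.88 and 0.86 on the log2 scale. Groups overlapped in the 10 genes named, and none of the 10 passed without Sham 1, where their log2 fold changes ran from -1.21 (Rgs19) to -0.31 (Smim22) and the lowest adjusted p was 0.0821 (Epha3). Against Sham 2 alone on plate C, 6 of the 10 passed: Epha3 (-1.12, adjusted p = 0.000487), Setdb1 (-1.11, 0.000865), Csdc2 (-0.88, 0.00353), Zfp609 (-0.94, 0.00882), Rgs19 (-1.20, 0.0197) and Ins1 (-0.82, 0.0391).

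To ask which changes were larger or smaller in cortex, the RM effect there was set against its mean in the other 3 areas within the same fit. In limma 53 genes had a larger effect in cortex (0.6%) and 28 a smaller one (0.317%), together 0.918%; against the junction alone 40 were larger (0.453%) and 30 smaller (0.34%), together 0.793%. RM itself changed 5.64% of genes at the junction (4.86% higher, 0.782% lower), 12.8% in glomeruli (10.1% higher, 2.76% lower) and 5.96% in medulla (4.84% higher, 1.12% lower). ROIs share rats here too, and these p-values do not measure the spread between rats. In glomeruli the ROIs of run Sham 3 were shallow, with estimated depths of 41933, 20345 and 17894, against 88068 to 209188 in the RM ROIs of plate C. Their negative probe stood at 17.9, 21.4 and 30.9. The part of depth and background in the glomerular share, and in the contrast with the other areas, was not tested.

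Gdf15, Atf3, Gclm, Jund, Ephx1 and Zfand2a had larger effects in cortex than the mean of the other areas. Gdf15 averaged 505 ± 99.4 in RM cortex (SD, n = 9), against 60.8 ± 8.86 in Sham cortex (n = 9), and 204 ± 96.8 at the RM junction (n = 8), against 67.1 ± 11.1 at the Sham junction (n = 9). Its effect of 3.01 in cortex stood beside 0.72 in medulla, 0.96 in glomeruli and 1.50 at the junction, and cortex exceeded the mean of the others by 1.95 ± 0.22, adjusted p = 8.68e-12. For Atf3 that difference was 1.75 ± 0.22, adjusted p = 7.75e-10, and for Zfand2a, which stood at 0.51 in medulla, 1.82 in glomeruli and 3.000 at the junction, it was 1.74 ± 0.20, adjusted p = 2.25e-11. Against the junction alone the difference of Zfand2a was 0.52 ± 0.25, adjusted p = 0.854, short of the threshold. Hspa1a rose by 2.69 in cortex and stood at 0.67 at the junction (adjusted p = 0.407; difference 2.02 ± 0.41, adjusted p = 0.000782).

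Other genes had smaller effects in cortex than at the junction or in medulla, which need not hold for every other area. Havcr1 averaged 44.0 ± 9.45 in RM cortex, against 43.8 ± 5.87 in Sham cortex, while it rose by 3.21 at the junction (log2 difference, cortex minus junction, -3.23 ± 0.25, adjusted p = 2.35e-22). Acly, which makes cytosolic acetyl-CoA, rose by 2.34 at the junction and stood at 0.33 ± 0.16 in cortex (difference -2.01 ± 0.18, adjusted p = 2.27e-18). Plin2 rose in both, by 1.07 in cortex and 3.75 at the junction (difference -2.68 ± 0.29, adjusted p = 9.91e-13). Rnd1, a small GTP-binding protein that acts on the actin cytoskeleton, rose by 2.38 in medulla and stood at 0.30 ± 0.21 in cortex. Fam43a, the integrin Itga3 and S100a10 also rose in medulla, and their cortical effect differed from the mean of the other areas by -1.06, -0.72 and -0.96.

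A few genes fell at the junction and did not fall in cortex. Mat2a, of S-adenosylmethionine synthesis, fell at the junction (-1.29) and rose in cortex (0.63 ± 0.18, adjusted p = 0.0201; difference 1.92 ± 0.21, adjusted p = 7.70e-13). Its cortical rise did not hold its sign after quantile normalization (-0.14, adjusted p = 0.635). Id4, an inhibitor of DNA-binding proteins, and Camk2n1, an inhibitor of a calmodulin kinase, fell at the junction by 1.56 and 1.02 and stood at 0.15 and 0.18 in cortex. Mt2 rose in all 4 areas, by 2.12 in cortex, 2.55 in medulla, 2.52 at the junction and 2.46 in glomeruli.

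**Figure D4:**
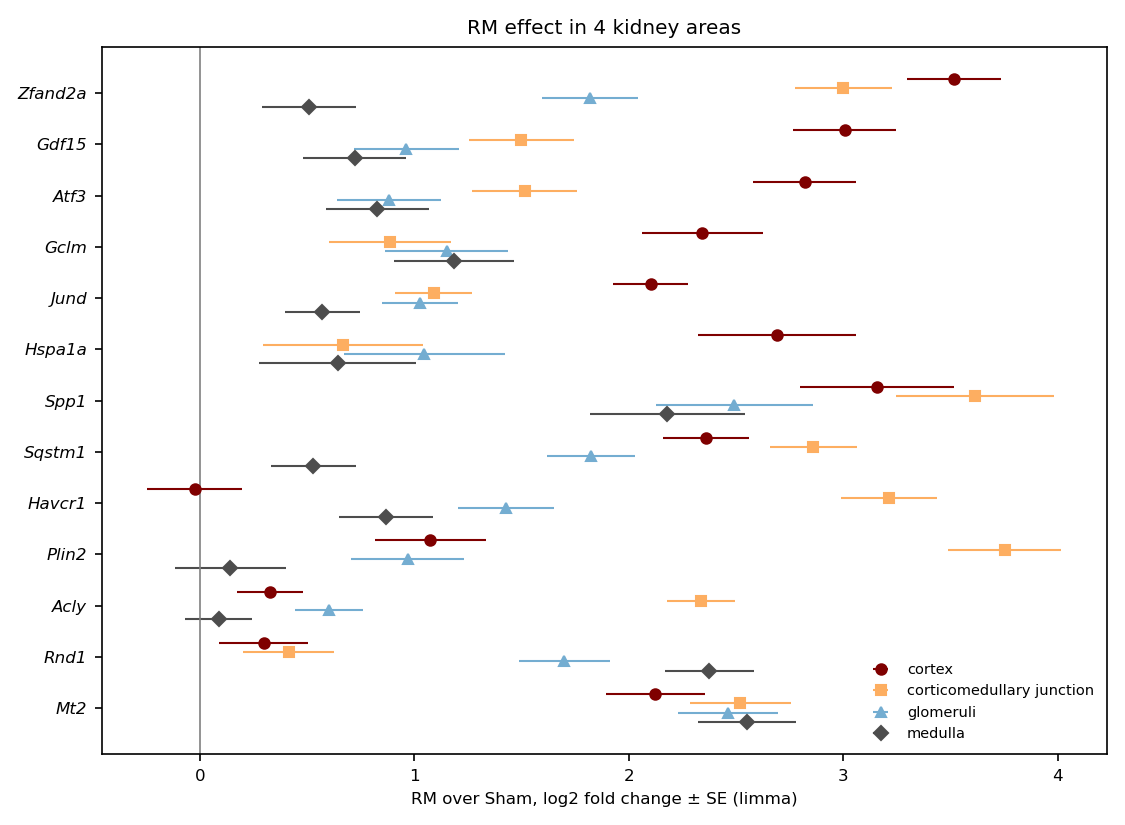
RM effect on 13 genes (log2 fold change over Sham ± SE, limma) in the cortex, medulla, glomeruli and junction. The effect of Gdf15 was 3.01 in cortex and 1.50 at the junction; that of Havcr1 was -0.02 in cortex and 3.21 at the junction; and that of Rnd1 was 0.30 in cortex and 2.38 in medulla.

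RM-HS cortex was set against RM cortex (9 ROIs each, both on plate C) to see what the added HS injury changed. Limma called 0 of 8827 genes (0%), with 98 genes at an unadjusted p under 0.05 and a lowest adjusted p of 0.0954. Zfand2a averaged 373 ± 142 in RM-HS ROIs, against 718 ± 331 in RM ROIs (SD, n = 9 each; log2 difference -0.89 ± 0.21, adjusted p = 0.15). Spp1 averaged 281 ± 130.0 in RM-HS ROIs, against 616 ± 427 in RM ROIs (-0.91 ± 0.34, adjusted p = 1). Gdf15 averaged 475 ± 229 in RM-HS ROIs, against 505 ± 99.4 in RM ROIs (-0.22 ± 0.23, adjusted p = 1). Ephx1 averaged 244 ± 171 in RM-HS ROIs and 444 ± 177 in RM ROIs (-1.02 ± 0.22, adjusted p = 0.0954). The ranges of the 2 groups overlapped in these 4 genes, and a missed threshold does not show that the injuries act alike. The negative probe ran from 24.8 to 35.1 in RM-HS ROIs, against 21.7 to 28.5 in RM ROIs. The part of this background in the differences was not tested.

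Set beside RM, against the same Sham ROIs, RM-HS changed 3.78% of genes in cortex (3.58% higher, 0.204% lower) and HS 0.0793%. Gdf15 stood at 3.01 for RM, 2.79 for RM-HS and 0.62 for HS. Atf3 stood at 2.82, 2.44 and -0.28 in that order, Zfand2a at 3.52, 2.63 and 0.03, and Mt2 at 2.12, 2.01 and 2.07. The 3 comparisons share their Sham ROIs, but not their plate. All HS ROIs were on plate E, where run Sham 3 was the only Sham run, and RM and RM-HS were on plate C. Because the plate term rests on Sham ROIs alone, HS against Sham leans on run Sham 3. The share of genes called for HS therefore cannot be compared with those for RM and RM-HS, and does not show that HS changes few genes.

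**Figure D5:**
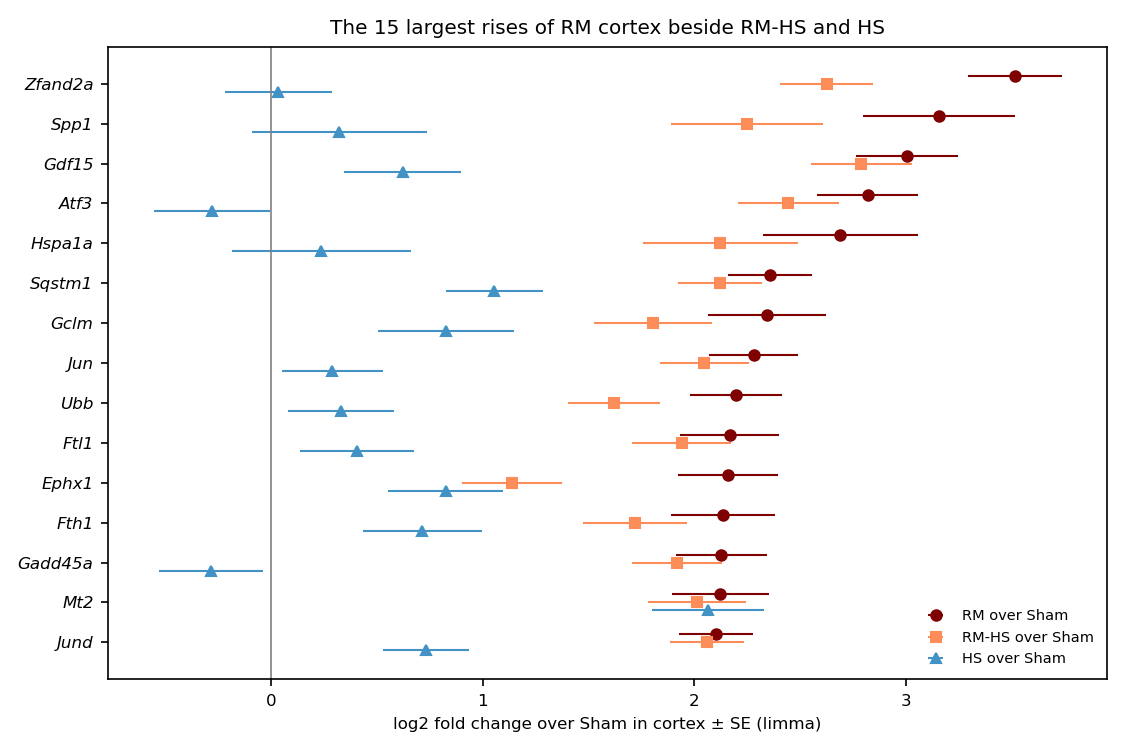
Log2 fold change over Sham in cortex (± SE, limma) of the 15 largest rises of RM, for RM, RM-HS and HS. Ephx1 stands at 2.16 for RM and 1.14 for RM-HS, and Mt2 at 2.12 for RM and 2.07 for HS. The 3 comparisons share the Sham ROIs, and HS was on plate E, where run Sham 3 was the only Sham run.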

How the data were processed

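Tissue RNA was measured with GeoMx mouse whole-transcriptome probes in 132 ROIs of rat kidney. The table the authors deposited holds a signal per gene and ROI, normalized so that the 75th percentile is 58.1573 in every ROI (Q3 normalization, per the file headers), with mouse gene symbols for 9271 genes and 1 negative probe; 8432 symbols are in the rat RefSeq table. The submitters' processing notes name GRCh38 and hg38 without a role. Every value was a whole multiple of 1 step per ROI (within 0.001 of a step), and depth was estimated by counting each step as 1 read, which no source used here states; with 9 ROIs a group, their number limits the precision.

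The signals were analysed as log2(signal + 1) with limma 3.58.1 (R 4.3.3). A gene was kept where 10% or more of the ROIs had it above 2 times their negative probe (8827 genes). The fit held 131 ROIs (the only ROI on plate A was left out), a mean for each group and area, a plate term, the well run as a random block (statmod 1.5.0) and moderated variances with a trend; Benjamini-Hochberg adjustment ran over all genes kept. Well runs are stretches of neighbouring wells read from the sample titles and are not known to be rats. These depth estimates and the negative probe were tested by exact permutation. The fit was tested on simulated data. The members and gene lists were chosen with earlier results of these data known. Genes named are Zfand2a, Spp1, Gdf15, Havcr1 and Slc34a1, the 15 largest rises and 10 largest falls, up to 4 called members of each list (or the 2 with the lowest p), and those with the lowest p in the contrasts of areas. Alternatives changed the plate term, block, samples, normalization, pseudocount and filter, and left out each well run. Lcn2 and Hmox1 were not analysed here, and results for a few genes that the rule names are not reported here.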

Additional observations from a re-analysis of the deposited data

Results flagged for a closer look

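Of 254 groups of 9 ROIs examined among the named genes, 24 held a highest or lowest ROI that stood far from the others (Dixon's gap test); chance gives about 1 in 20. Of these 24, 3 were in RM 1, 6 in RM 2, 7 in RM 3 and 8 in Sham. One ROI of RM 2 (replicate 6) was the high one for Atf3 at 517, Ephx1 at 894, Psmb1 at 87.6, Nfil3 at 156, Rps24 at 259 and Ctsl at 299. One ROI of RM 3 (replicate 7) was the high one for 6 of the genes that fell: Rgs19 at 639, Epha3 at 96.2, Setdb1 at 149, Zfp609 at 127, Csdc2 at 88.4 and Snorc at 48.7. Upk1a stood at 50.6 in another ROI of RM 3, and Btg1 at 222, Gadd45g at 128 and Egf at 748 in 1 ROI of RM 1. In Sham cortex the high values were Mt1 at 348, Ndrg1 at 86.9, Tns1 at 126, Stat3 at 130.2 and Myl12a at 72.0, all in Sham 3 on plate E. The low values were S100a10 at 38.8 and Id4 at 20.9 in Sham 3 and Ehd3 at 40.8 in Sham 1.

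The effect of RM differed between areas in 49 contrasts of named genes (limma interaction, adjusted p under 0.05). As the log2 effect in cortex minus the mean of the other areas, it was larger in cortex for Gdf15 (1.95), Hspa1a (1.90), Atf3 (1.75), Zfand2a (1.74), Ephx1 (1.68), Gclm (1.27), Gpx3 (1.25), Jund (1.21), Egf (1.17), Jun (1.15), Cat (1.05) and Ubb (1.001). Smaller differences of that sign were those of Slc13a3 (0.98), Tns1 (0.94), Atp5c1 (0.88), Atp5a1 (0.80), Id4 (0.80), Dnaja1 (0.79), Mat2a (0.70), Ppp1r1a (0.62) and Camk2n1 (0.59). It was smaller in cortex for Havcr1 (-1.86), Rnd1 (-1.20), Fam43a (-1.06), S100a10 (-0.96), Itga3 (-0.72) and Acly (-0.68). The mean of the other areas includes the junction, where Mat2a, Id4 and Camk2n1 fell and Acly rose, as given above.

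Against the junction alone the log2 effect in cortex was larger for Hspa1a (2.02), Gpx3 (1.97), Mat2a (1.92), Id4 (1.71), Tns1 (1.57), Gdf15 (1.51), Gclm (1.46), Ephx1 (1.44), Egf (1.35), Atf3 (1.30), Camk2n1 (1.20), Slc13a3 (1.17), Ppp1r1a (1.03), Jun (1.01) and Jund (1.01). It was smaller for Havcr1 (-3.23), Plin2 (-2.68), Acly (-2.01), Cdk2ap2 (-1.54), Btg2 (-0.99), S100a10 (-0.88) and Fam43a (-0.73).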

How the results depend on the processing

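Of the 89 named genes called, 36 passed in all 19 planned settings. Among the 89, the sign turned in 1 setting of 1 gene: Mat2a stood at -0.14 after quantile normalization, against 0.63 before, and the cause was not tested. Of the 36 named genes that were not called, 8 took either sign in some setting, past the threshold in none; Havcr1 ran from -0.17 (without RM 2) to 0.06 (without RM 1). The count of 485 genes called in cortex was 952 on plate C only, 99 with 1 mean per well run (539 on plate C only), 2053 with RM and Sham cortex ROIs only, 830 with a spread for each area and 1132 after quantile normalization, where 68.1% of calls were higher in RM, against 95.9% on Q3-normalized values. Leaving out 1 well run gave 137 (without Sham 1) to 908 (plate C only, without Sham 2), with 292 without RM 1 and 283 without RM 2; the plate C settings without a Sham run were added after seeing the data. The count of 81 genes for cortex against the mean of the other areas was 277 on plate C only, 37 with no block, 7 with run means and 221 after quantile normalization, and 32 (without RM 1, RM 2 or Sham 2) to 145 (without Sham 3) with a run left out. The count of 70 against the junction was 175 on plate C only, 13 with run means and 143 after quantile normalization, and 33 (without RM 1) to 100 (without Sham 3) with a run left out. The count of 0 for RM-HS against RM was 9 on plate C only, 2 with no block, 4 after quantile normalization and 0 to 7 (without RM 3) with a run left out. The causes were not tested. Estimated depth and negative-probe values kept their direction and side of the threshold. No paired analysis was possible because the labels carry no replicate numbers that groups share. The planned edgeR and DESeq2 fits were not run, since the deposited values are normalized signals and not counts.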
